A study of Mus musculus with 6 samples.

Results

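Imprinted genes are read from only 1 of the parental copies, and several of them set growth and neuronal number. The genes described here are 10 imprinted growth-control genes of the brain, Meg3, Peg3, Plagl1, Mest, Ndn, Grb10, Snrpn, Nnat, Magel2 and Peg10, chosen by their exact symbols among the 22544 genes of 1 expression table, which held all 10. The RNA came from the cortex of Swiss Webster mice, from upper-layer neurons that carried green fluorescent protein (GFP) and had been collected by cell sorting at postnatal day 5 (P5) and postnatal day 3 (P3). There were 3 samples at P5 and 3 at P3, called biological replicates in the study's design, and no other treatment or genotype is given in the labels. How the GFP was introduced, and whether animals were pooled, is not given in the sources used here. The table gives 1 pooled value per age in FPKM (fragments per kilobase of transcript, scaled to the library's total), so no spread between samples can be shown for a level. The table has no counts, and the depth of the libraries is therefore unknown.

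Imprinting is laid down as DNA methylation in the egg or sperm and is kept at control regions that silence one parental copy of the genes around them. Most of the 10 genes are transcribed from the paternal copy, Meg3 is transcribed from the maternal copy, and Grb10 is maternal in most mouse tissues but paternal in neurons. In the brain these genes are known for cell cycle arrest (Plagl1, Ndn), apoptosis (Peg3), restraint of insulin and IGF signalling (Grb10), and neuronal RNA processing and membrane traffic (Snrpn, Magel2). The table holds no allelic information, so imprinting itself was not measured.

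Promoter sequences are shown for the 4 genes whose levels are read below against a neighbour, 2 of them with a start region shared with another gene and 2 that lie close together. Each is a window of 300 bases, from 250 before to 50 after the RefSeq start, on build GRCm38.p6, and capitals mark the dinucleotide CG, the usual target of imprint methylation.
Peg3, chr7:6730370-6730669, minus strand: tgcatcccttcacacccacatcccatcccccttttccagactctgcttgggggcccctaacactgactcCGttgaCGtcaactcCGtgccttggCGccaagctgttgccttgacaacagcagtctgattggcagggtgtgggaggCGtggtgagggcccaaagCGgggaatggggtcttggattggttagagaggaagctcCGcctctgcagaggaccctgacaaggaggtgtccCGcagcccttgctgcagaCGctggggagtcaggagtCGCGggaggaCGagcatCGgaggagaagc
Snrpn, chr7:60005150-60005449, minus strand: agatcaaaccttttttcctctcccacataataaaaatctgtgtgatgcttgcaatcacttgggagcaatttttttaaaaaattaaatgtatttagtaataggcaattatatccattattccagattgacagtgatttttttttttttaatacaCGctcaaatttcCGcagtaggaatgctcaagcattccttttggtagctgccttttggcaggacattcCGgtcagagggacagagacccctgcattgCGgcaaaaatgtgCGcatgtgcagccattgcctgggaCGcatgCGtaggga
Ndn, chr7:62348027-62348326, plus strand: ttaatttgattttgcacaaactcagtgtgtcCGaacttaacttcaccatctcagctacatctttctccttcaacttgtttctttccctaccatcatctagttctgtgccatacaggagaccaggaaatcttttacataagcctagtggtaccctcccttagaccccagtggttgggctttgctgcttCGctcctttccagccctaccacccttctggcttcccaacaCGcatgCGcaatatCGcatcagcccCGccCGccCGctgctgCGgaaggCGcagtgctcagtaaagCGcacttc
Magel2, chr7:62376729-62377028, plus strand: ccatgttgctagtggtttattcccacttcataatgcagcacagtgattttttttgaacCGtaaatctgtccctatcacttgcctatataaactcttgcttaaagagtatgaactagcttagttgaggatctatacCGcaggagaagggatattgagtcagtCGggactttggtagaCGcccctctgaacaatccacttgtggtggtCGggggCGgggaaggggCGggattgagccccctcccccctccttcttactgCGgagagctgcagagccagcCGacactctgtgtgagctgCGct
The Peg3 window shares 263 bases with that of Usp29, which lies on the other strand, and it holds 13 CG. At least that many CG were present in 37.9% of all 32851 promoter windows of this length. Of the 4 Snrpn windows, the one printed is identical to that of Snurf and holds 7 CG, the median of all windows. Ndn and Magel2 lie on the same strand with 11 and 10 CG in their windows. The sequence CG reads alike on both strands. A window was found for 9 of the 10 genes.

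Levels spread widely among the 10 genes and kept nearly the same order at both ages. At P5 the order from high to low was Ndn, Nnat, Mest, Meg3, Snrpn, Grb10, Plagl1, Peg3, Peg10 and Magel2. At P3 it differed only in that Nnat came before Ndn. The highest level at P5 was 202 FPKM for Ndn, and the lowest was 0.302 FPKM for Magel2. FPKM is scaled per length, so differences in length do not prevent setting these levels side by side. Neighbours in the order cannot be tested, since the table gives no error for a level. The rows of 5 members, Meg3, Peg3, Mest, Snrpn and Nnat, share a deposited locus with another row. For Meg3 that row is a microRNA listed at 0 at both ages. For Peg3, Mest, Snrpn and Nnat, scaling per length does not settle how fragments are split between rows. The places of these genes in the order are therefore uncertain.

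**Figure D1:**
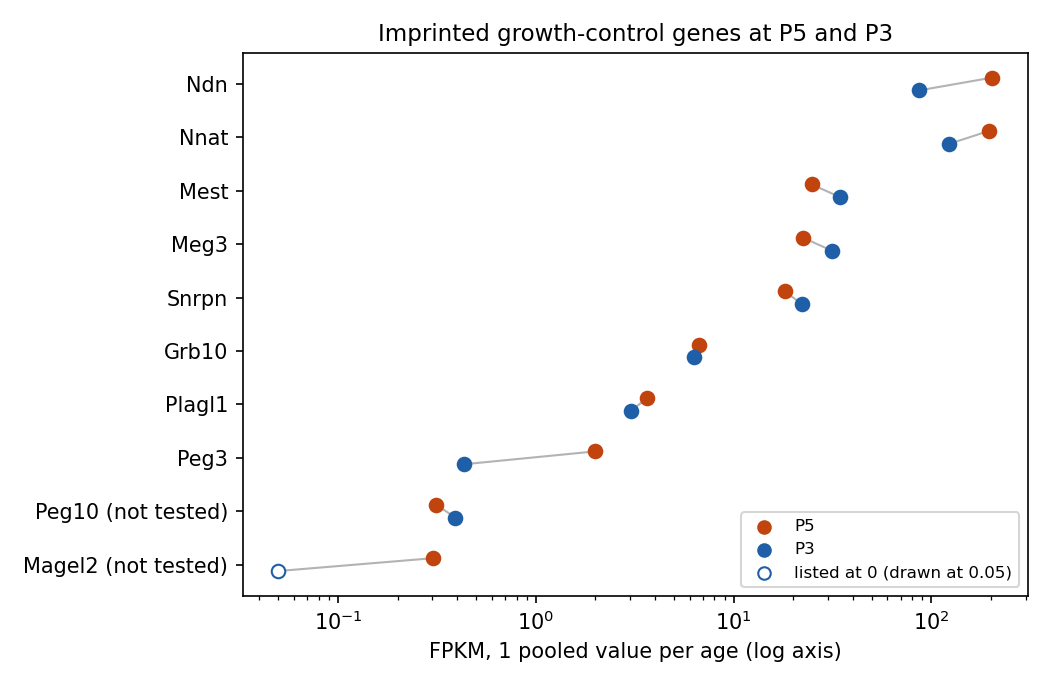
FPKM of the 10 imprinted genes on a log axis, with 1 pooled value at P5 (orange) and 1 at P3 (blue) and no error bars because the table gives none. Ndn and Nnat lie far to the right of the others at both ages, and Magel2, listed at 0 at P3, is drawn as an open point.

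No member passed the test between P5 and P3. The authors' Cuffdiff test had been run on 8 of the 10 genes, and it called 0 of them at q = 0.05, against 0% of all 12865 tested genes of the authors' deposited table. At an unadjusted p under 0.05 there were also 0 members, against 0.770% of all tested genes. Among the 8 tested genes, 5 had higher FPKM at P5 (Ndn, Nnat, Peg3, Plagl1, Grb10) and 3 had lower FPKM (Mest, Meg3, Snrpn), a share of 62.5% higher beside 55.6% of the 12313 tested genes above 0 at both ages. Their median log2 ratio of P5 over P3 was 0.18, beside 0.13 for all of those genes. When ratios are centred on that median of all genes, the ratio of Grb10 changes sign, at -0.05, and 4 of 8 lie above 0. Every deposited q of the 8 was 0.999988, which was also the lowest q of the table.

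The growth suppressor Ndn (mm9 chromosome 7, 69493163 to 69494813) encodes necdin, a MAGE protein of postmitotic neurons that binds E2F factors and p53. It had 202 FPKM at P5 and 86.3 FPKM at P3 and exceeded 99.2% of all genes at P5 and 97.4% at P3. Its log2 ratio of P5 over P3, as the authors' deposited table has it, was 1.23 with a standard error (SE) of 1.19 implied by its test statistic, and p = 0.304. The 95% interval ran from -1.11 to 3.57, so it included no difference as well as a fold well above the observed 2.34. No other gene of the table overlaps the locus of Ndn.

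Magel2, a MAGE protein that works with the ubiquitin ligase Trim27 on endosomes, lies 27051 bases from Ndn on mm9 chromosome 7 (69521865 to 69526526). It had 0.302 FPKM at P5 and was listed at 0 at P3, as were 39.0% of all genes, and it was not tested. An exact 0 in such a table can be a failed estimate, so no fold is given. The level of Ndn at P5 was 670 times that of Magel2. The 2 other genes within 250 kb of Ndn were also far apart, with Peg12, a Frat-family gene of Wnt signalling, at 91.8 FPKM at P5 and 111.7 FPKM at P3, and the RING finger gene Mkrn3 at 5.06 FPKM at P5 and 1.39 FPKM at P3. Peg12 was thus below Ndn at P5 and above it at P3. The log2 ratio in the authors' deposited table was -0.28 (SE 1.15) for Peg12 and 1.87 for Mkrn3 (p = 0.355).

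Snrpn (mm9 chromosome 7, 67127388 to 67285105) encodes SmN, a spliceosomal protein of neurons, on a transcript that also carries the short upstream reading frame Snurf. Snrpn had 18.2 FPKM at P5 and 22.1 FPKM at P3. Snurf, listed as a gene of its own at the same locus, had 64.4 FPKM at P5 and 40.6 FPKM at P3. The pair differed in direction, with log2 ratios in the authors' deposited table of -0.28 (SE 1.67) for Snrpn and 0.67 (SE 1.38) for Snurf, each far inside its error. Snurf was 3.54 times Snrpn at P5 and 1.84 times Snrpn at P3. Both names are annotated on the same strand and share the promoter printed above, so how fragments are split between them is uncertain, and the difference between the pair was not tested. Ube3a, the ubiquitin ligase gene of the same domain that neurons express from the maternal copy, had 27.5 FPKM at P5 and 32.5 FPKM at P3. Atp10a, at its far end, had 0.00658 FPKM at P5 and 0.0197 FPKM at P3 and was not tested.

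Nnat (mm9 chromosome 2, 157382098 to 157392097) encodes neuronatin, a small membrane protein of the endoplasmic reticulum found in developing neurons. Its level was 195 FPKM at P5 and 123 FPKM at P3, with a log2 ratio of 0.66 (SE 1.46, p = 0.650) in the authors' deposited table. Blcap, whose row has the same locus and whose gene lies on the other strand, had 31.2 FPKM at P5 and 18.2 FPKM at P3, a log2 ratio of 0.77 (SE 2.22). Nnat was 6.24 times Blcap at P5 and 6.74 times Blcap at P3. The 2 rows therefore had similar ratios. Whether the libraries keep strand is not given in the sources used here, and without it fragments from any stretch that both genes transcribe could be counted for either, a share that was not measured.

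Mest and Meg3 were the mid-level members, and both had lower FPKM at P5. Mest (mm9 chromosome 6, 30688063 to 30846760), a predicted hydrolase known from mesoderm and embryonic growth, had 24.8 FPKM at P5 and 34.7 FPKM at P3. Its log2 ratio of -0.48 in the authors' deposited table carried an SE of 1.06, the smallest of the 8 tested members, and its 95% interval was -2.55 to 1.59. The coatomer subunit gene Copg2, on the other strand, has a row with the same deposited locus, so that span is not given for Mest alone. Copg2 had 4.33 FPKM at P5 and 4.05 FPKM at P3. Without strand, fragments from any stretch that both genes transcribe could be counted for either, a share that was not measured. Of the rest of that cluster, Tsga14 had 2.38 FPKM at P5 and 2.07 FPKM at P3, Cpa4 had 0.130 FPKM at P5 and 0.212 FPKM at P3, and Klf14 was listed at 0 at both ages, as were 32.1% of all genes.

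Meg3 (mm9 chromosome 12, 110779206 to 110809939) is a long noncoding RNA with growth-suppressing activity. It had 22.5 FPKM at P5 and 31.4 FPKM at P3, and its log2 ratio in the authors' deposited table was also -0.48, but with an SE of 5.04. That SE exceeded those of 99.2% of the 5010 tested genes with more than 10 FPKM at either age, whose median was 1.06. The 95% interval of -10.4 to 9.40 leaves the ratio of Meg3 without useful bounds. The 6 listed genes of its domain had low levels. Begain had 0.775 FPKM at P5 and 1.13 FPKM at P3, Rian had 0.429 FPKM at P5 and 0.228 FPKM at P3, Mirg had 0.288 FPKM at P5 and 0.0210 FPKM at P3, and Dlk1, a transmembrane relative of Notch ligands, had 0.0295 FPKM at P5 and was listed at 0 at P3. Rtl1 and Dio3 were listed at 0 at both ages. Some other rows of the same region had higher values, and the 3 given here were named after their values were seen. Of 56 microRNA rows within 250 kb of Meg3, 54 were listed at 0 at both ages. Mir377 had 99.6 FPKM at P5 and 30.2 FPKM at P3, and Mir453 was listed at 0 at P5 and had 160.6 FPKM at P3. AF357355, whose row has the same deposited locus as Rian, had 2844 FPKM at P5 and was listed at 0 at P3. None of these 3 was called in the authors' deposited table. FPKM is scaled per length, so in a row for a short RNA, such as a microRNA, few fragments can give a high value. Without counts, the number of fragments behind these 3 rows is unknown.

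**Figure D2:**
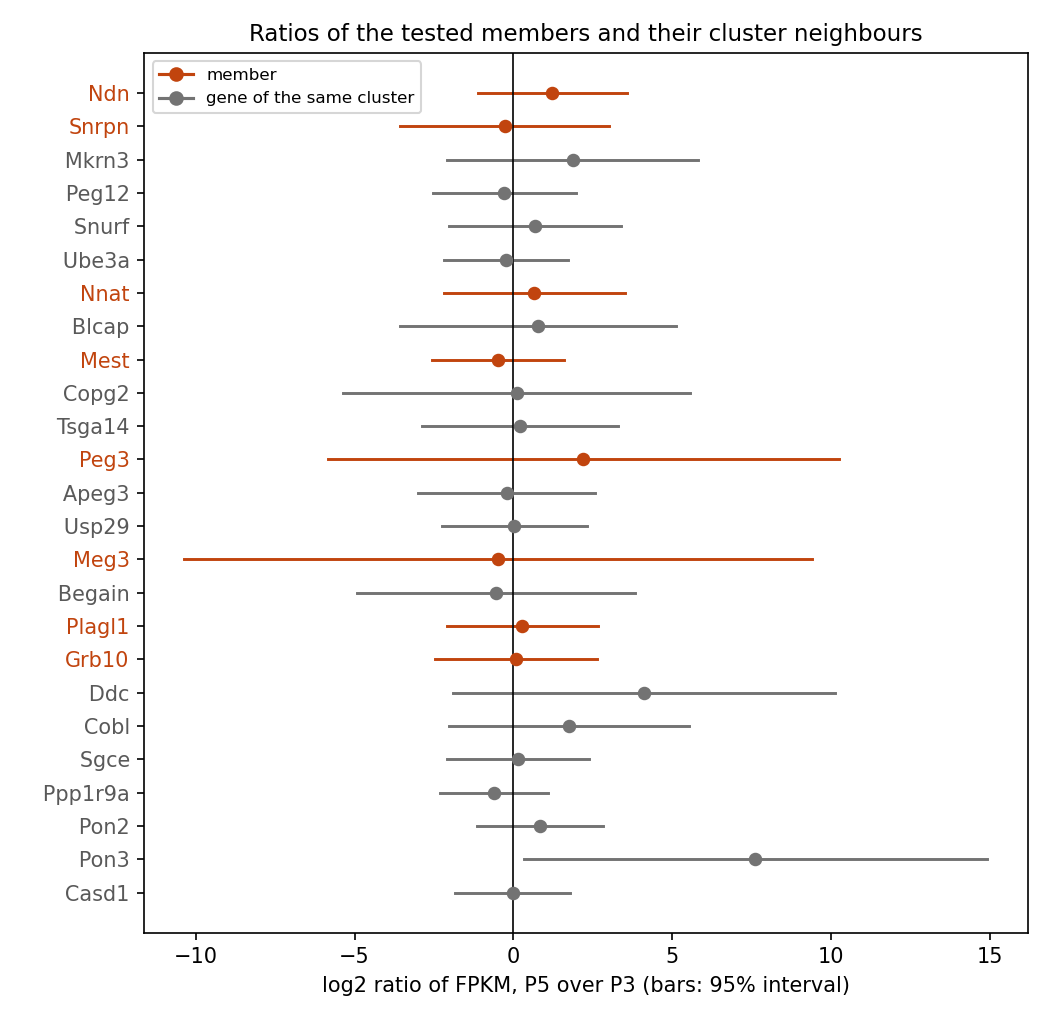
Log2 ratios of FPKM, P5 over P3, for the 8 tested members (orange) and 17 genes of the members' clusters (grey), which are Apeg3 and every listed cluster gene that was tested and above 0 at both ages, with bars for the 95% interval from the deposited test statistic. All 8 members' bars cross 0, as do those of the cluster genes other than Pon3 (0.32 to 14.9), and those of Meg3 (-10.4 to 9.40) and Peg3 (-5.84 to 10.2) are the widest drawn.

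Grb10 and Plagl1 act in growth signalling and had nearly level values. Grb10 (mm9 chromosome 11, 11830502 to 11937423), an adaptor that binds and restrains the insulin and IGF1 receptors, had 6.69 FPKM at P5 and 6.35 FPKM at P3 (log2 ratio 0.08, SE 1.30, in the authors' deposited table). Its sign is lost when ratios are centred, as given above. Plagl1 (mm9 chromosome 10, 12810594 to 12851501), a zinc finger factor that arrests the cell cycle, had 3.67 FPKM at P5 and 3.02 FPKM at P3 (log2 ratio 0.28, SE 1.21). Their intervals of -2.47 to 2.63 and -2.09 to 2.65 still include changes of more than 2 log2 units in each direction. Next to Grb10, Ddc, the decarboxylase of dopamine and serotonin synthesis, had 3.83 FPKM at P5 and 0.223 FPKM at P3, and the actin nucleator Cobl had 2.37 FPKM at P5 and 0.706 FPKM at P3. Neither passed the test in the authors' deposited table (p = 0.182 for Ddc and p = 0.365 for Cobl).

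Most listed partners of Grb10 were present at both ages. Of a list of 7 adaptor relatives, receptors and ligase, 1 was listed at 0 at both ages and not tested. Of all genes, 32.1% were at 0 at both ages. Of the 6 tested genes of the list, 0 were called, against 0% of all tested genes. In 3 of them FPKM was higher at P5 and in 3 it was lower. The ligase Nedd4 had 96.2 FPKM at P5 and 111.8 FPKM at P3, the IGF1 receptor gene Igf1r had 7.58 FPKM at P5 and 8.24 FPKM at P3, the insulin receptor gene Insr had 3.70 FPKM at P5 and 5.11 FPKM at P3, and the substrate gene Irs1 had 4.85 FPKM at P5 and 4.21 FPKM at P3. The relative Grb14 had 5.65 FPKM at P5 and 0.592 FPKM at P3 (log2 ratio 3.25, SE 2.28, in the authors' deposited table).

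Peg3 and Peg10 were listed at low levels beside genes that adjoin them. Peg3 (mm9 chromosome 7, 6658671 to 6683130), a zinc finger protein of p53-linked apoptosis, had 1.99 FPKM at P5 and 0.435 FPKM at P3. The log2 ratio of 2.20 was the largest of the tested members, but its implied SE was 4.10, and p = 0.592 in the authors' deposited table. Apeg3, an antisense RNA of 865 bases inside the Peg3 gene in RefSeq, has a row with the same deposited locus, and it was named after its values were seen. It had 23.6 FPKM at P5 and 27.2 FPKM at P3, so it was 11.8 times Peg3 at P5 and 62.6 times Peg3 at P3. The sum of both rows was 25.5 FPKM at P5 and 27.7 FPKM at P3. Without strand, reads over the stretch that Peg3 shares with its antisense partner cannot be told apart, so part of the level of either row may belong to the other, and how much was not tested.

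The deubiquitinase gene Usp29, on the other strand, has a deposited mm9 locus that begins 321 bases from that of Peg3. Usp29 had 3.70 FPKM at P5 and 3.62 FPKM at P3, a log2 ratio of 0.03 (SE 1.16) in the authors' deposited table. It was above Peg3 at both ages, although their promoter windows overlap. Those windows are from RefSeq on GRCm38.p6, so the 321 bases do not apply to them. Zim1 had 0.394 FPKM at P5 and 0.354 FPKM at P3, and Zim3 was listed at 0 at both ages.

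Peg10 (mm9 chromosome 6, 4697306 to 4710516), derived from a retrotransposon and needed for the placenta, had 0.314 FPKM at P5 and 0.392 FPKM at P3 and was not tested. Sgce, which encodes epsilon-sarcoglycan and begins 101 bases away on the other strand, had 37.3 FPKM at P5 and 33.9 FPKM at P3. Sgce was thus 119 times Peg10 at P5 and 86.4 times Peg10 at P3. Several other genes of this cluster were also above Peg10, with the paraoxonase gene Pon2 at 41.8 FPKM at P5 and 23.4 FPKM at P3, Casd1 at 14.2 FPKM at P5 and 14.5 FPKM at P3, and the neuronal actin-binding gene Ppp1r9a at 5.39 FPKM at P5 and 8.20 FPKM at P3. Pon3, another paraoxonase gene, was above Peg10 at P5 but below it at P3, at 1.83 FPKM at P5 and 0.00933 FPKM at P3. It was the only listed cluster gene of Peg10 with an unadjusted p under 0.05 (log2 ratio 7.62, SE 3.72, p = 0.0408 in the authors' deposited table). Asb4 had 1.19 FPKM at P5 and was listed at 0 at P3, and Calcr and Tfpi2 were listed at 0 at both ages.

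**Figure D3:**
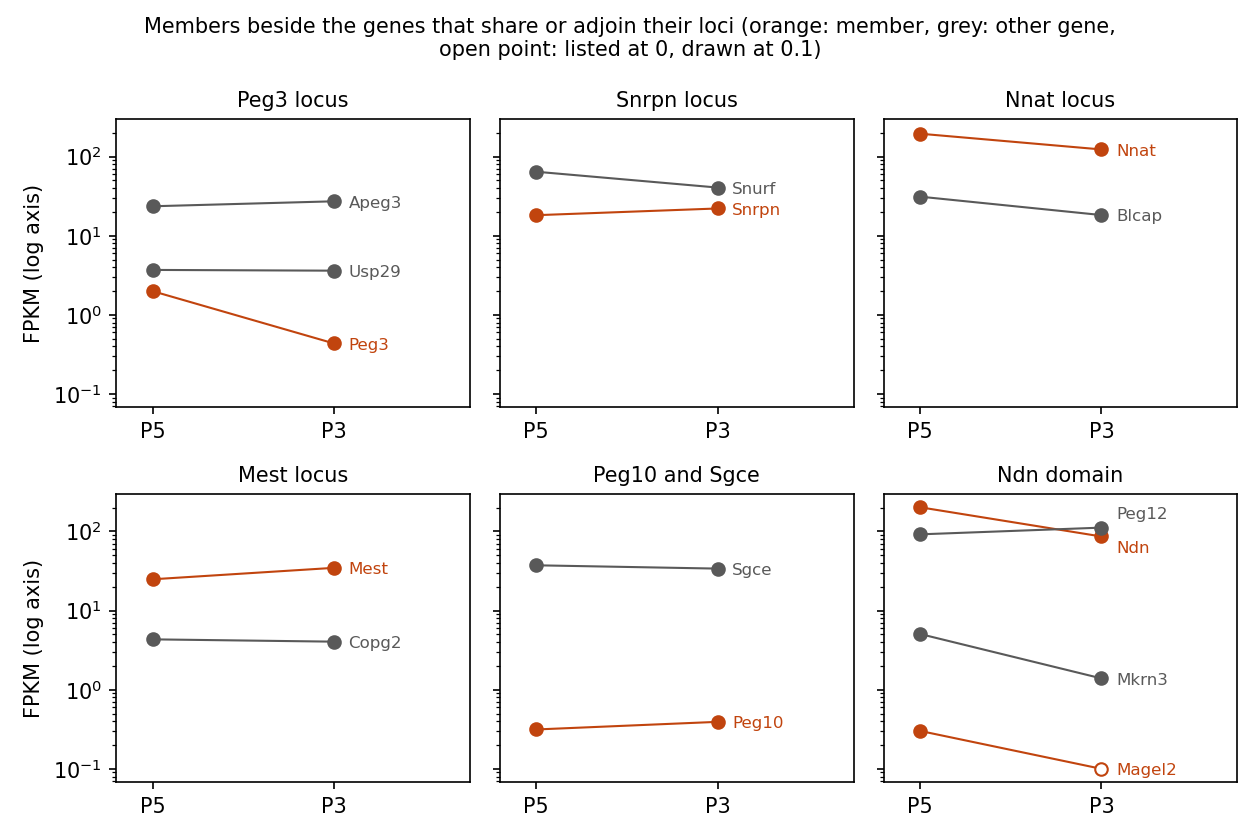
FPKM on a log axis at P5 (left) and P3 (right) for members (orange) and the genes that share or adjoin their loci (grey), with lines joining the 2 pooled values of a gene and no error bars. Apeg3 lies above Peg3, Sgce lies above Peg10, and Ndn and Peg12 lie far above Mkrn3 and Magel2 in the same domain.

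Other imprinted genes showed the same lack of calls. Their list was not limited to genes imprinted in the brain, so some may be imprinted only in other tissues. Of 64 such genes with a row, 44 had been tested, and 0 were called at q = 0.05, again against 0% of all tested genes. Among the 42 above 0 at both ages, FPKM was higher at P5 in 26 and lower in 16, which is 61.9% higher beside the 55.6% given above, with a median log2 ratio of 0.19. That median was 0.06 when ratios were centred on all genes, and the mean was 0.66. Only Pon3 had an unadjusted p under 0.05, with the values given above for the Peg10 cluster. The most abundant were the tetraspanin gene Cd81, with 954 FPKM at P5 and 527 FPKM at P3, the stimulatory G protein gene Gnas, with 324 FPKM at P5 and 364 FPKM at P3, and the phosphatase gene Inpp5f, with 169 FPKM at P5 and 178 FPKM at P3. The cholesterol synthesis gene Dhcr7 had 26.2 FPKM at P5 and 10.1 FPKM at P3.

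Plagl1 heads a set of co-expressed imprinted genes described in mice, often called the imprinted gene network. The list used here takes in members, such as Ndn, and other imprinted genes counted above, such as Igf2. Of its 16 listed genes 14 had been tested, and 0 were called, against 0% of all tested genes. FPKM was higher at P5 in 8 and lower in 6. That is 57.1% higher, beside 55.6% of all 12313 tested genes above 0 at both ages. Their median log2 ratio was 0.11, beside 0.13 for all 12313. Genes of the network thus went in both directions, as did tested genes at large. The growth factor gene Igf2 had 13.9 FPKM at P5 and 1.32 FPKM at P3 (log2 ratio 3.39, SE 1.83, p = 0.0633 in the authors' deposited table), the creatine synthesis gene Gatm had 77.4 FPKM at P5 and 32.9 FPKM at P3, and the proteoglycan gene Dcn had 19.4 FPKM at P5 and 2.45 FPKM at P3. Igf2r, which clears IGF2, had 7.46 FPKM at P5 and 13.7 FPKM at P3, and the CDK inhibitor gene Cdkn1c had a log2 ratio of -1.69 (SE 0.94) in the authors' deposited table.

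Several lists of cell type markers, neuronal ones among them, had higher summed levels at P5 than at P3 in the same sorts. None of these genes passed the Cuffdiff test. Of all 12313 tested genes above 0 at both ages, 55.6% had higher FPKM at P5. The summed FPKM of 5 fibroblast and meningeal markers was 40.0 at P5 and 8.24 at P3, with 5 of 5 higher at P5, and that of 6 endothelial and mural markers was 40.2 at P5 and 4.89 at P3, with 5 of 6 higher. Dcn, itself one of these fibroblast markers, and Igf2 had higher FPKM at P5 beside them. The sums of 6 astrocyte markers (1473 FPKM at P5 and 520.3 at P3), 6 microglia markers (79.7 at P5 and 14.8 at P3), 6 oligodendrocyte lineage markers (243 at P5 and 122 at P3) and 5 pan-neuronal markers (1093 at P5 and 463 at P3) were higher at P5 too, with every gene of these 4 lists higher. Upper-layer markers summed to 468 FPKM at P5 and 473 FPKM at P3, with 3 of 8 higher. Deep-layer markers summed to 42.6 FPKM at P5 and 40.1 FPKM at P3, with 4 of 6 higher. Interneuron markers summed to 142.5 FPKM at P5 and 87.7 FPKM at P3, with 3 of 6 higher. Of the interneuron sum, Sst alone gave 95.6 FPKM at P5 and 30.1 FPKM at P3. The median log2 ratio of the interneuron list was 0.08. None of the genes in these lists was listed at 0, while 3 of 4 choroid plexus markers were at 0 at both ages. Whether these differences had a part in the values of Ndn, Nnat, Igf2 or any other gene here was not tested. In sorted samples a different number of cells of a type and a different amount of RNA per cell cannot be told apart.

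Errors limited every member. The implied SE of the 8 tested members ran from 1.06 for Mest to 5.04 for Meg3, with a median of 1.38, equal to the median of 1.38 over all tested genes above 0 at both ages. Plagl1 and Grb10, at low levels, had SEs close to those of Ndn and Nnat, which were far more abundant. The intervals of all 8 included 0 and reached beyond 1 log2 unit in each direction, so a change of that size either way lay inside each of them. The lowest SE of all 12313 tested genes above 0 at both ages was 0.82. Only 0.770% of all tested genes had an unadjusted Cuffdiff p under 0.05, fewer than that threshold lets through when no gene differs. The deposited errors may therefore be too wide, which was not tested.

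**Figure D4:**
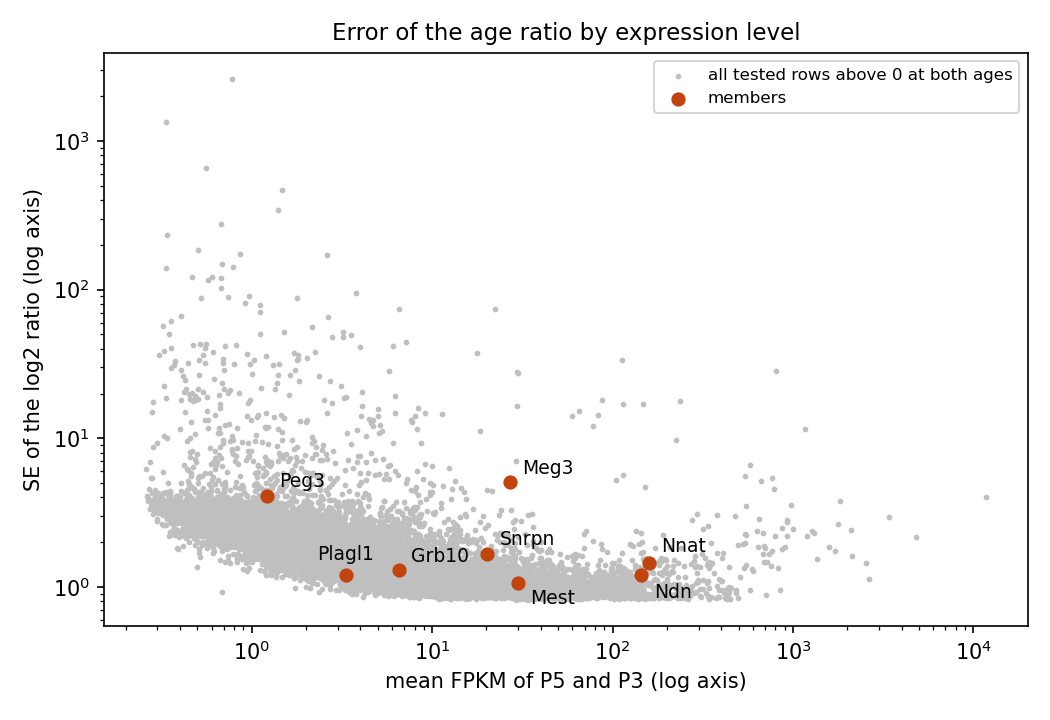
SE of the log2 ratio against mean FPKM of P5 and P3, both on log axes, for all 12313 tested genes above 0 at both ages (grey) and the 8 tested members (orange). Meg3 stands above nearly all genes of its level, and Peg3 lies at the upper edge of the dense band, whereas Mest (1.06) lies at the median of genes with more than 10 FPKM and Ndn (1.19) above it.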

How the data were processed

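RNA sequencing of 3 samples at P5 and 3 at P3 was deposited as 1 table. Per the submitters' processing notes, TopHat, Cuffdiff 2.02 and the build mm9 were used, without role or order; the annotation is not given in the sources used here. FPKM was deposited as 1 value per age, pooled over replicates by the authors per the file headers. The deposited log2 ratio and test statistic were handled as scores because they hold a placeholder where 1 age is at 0. The p-value and q-value are deposited by the authors, and q was used for genes with status OK (12865 of 22544). No new test across samples can be made from pooled values, and no per-sample column was left aside.

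The SE was the size of the ratio over the size of the statistic, whose sign is opposite to that of the ratio in all 12313 genes above 0 at both ages. The statistic, read as a normal deviate and two-sided, gave the deposited p within 2.8e-06; intervals are 1.96 SE either side. The arithmetic was checked on simulated data built with the same relation. That check cannot show whether the deposited statistic is a ratio over its error. Python 3.11.15 and pandas were used. Starts in the deposited loci were read as counted from 0, because 6706 of 19949 loci then equal the RefSeq gene length, against 444 otherwise. Strand relations are from GENCODE M21 and promoters from RefSeq GRCm38.p6; no coordinates were converted.

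The members, gene lists and rules were chosen with earlier results of these data known. All 10 members and the listed genes of their clusters were named; of other lists, the 3 highest by mean FPKM and, per direction, the 2 lowest by p at 5 FPKM or more at either age. Marker lists are given as sums, with Dcn named from the fibroblast list and Sst from the interneuron list. Genes named after their values were seen are marked so. Alternatives were other thresholds and adjustments, a filter on low values, pseudocounts, centring, rescaling, means, every status and leaving out shared loci.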

Additional observations from a re-analysis of the deposited data

How the results depend on the processing

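Of 33 values of the main results recomputed under an alternative, 31 kept their position. The call count of other imprinted genes was 1 at an unadjusted p under 0.05 (Pon3), and the share of tested members higher at P5 was 100% when the members at loci shared with another gene were left out, which leaves 3 genes (Ndn, Plagl1 and Grb10). For the members, 0 were called under every alternative. Their median log2 ratio ran from 0.05, centred on the median of all tested genes, a shift of 0.13, to 0.40 as a mean. The sign was lost in 1 of 32 recomputed values of single members, that of Grb10 when centred (-0.054). No paired analysis was possible because the deposited values are pooled over replicates, and for the same reason no replicate could be left out. Depth is unknown, so no limit can be set for a gene listed at 0.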

Other observations

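Of 10 tested genes that set or maintain imprints 8 had lower and 2 had higher FPKM at P5. Among all 12313 tested genes above 0 at both ages, 44.4% had lower FPKM at P5. The median log2 ratio of the 10 was -0.62, beside 0.13 for all 12313, and 0 of the 10 were called. The DNA methyltransferase gene Dnmt3a had 55.4 FPKM at P5 and 105.1 FPKM at P3, the zinc finger gene Zfp57, which guards imprints in embryos, had 32.0 FPKM at P5 and 60.5 FPKM at P3, and its corepressor Trim28 had 32.0 FPKM at P5 and 42.4 FPKM at P3. Arid4b had 14.9 FPKM at P5 and 30.6 FPKM at P3. The maintenance methyltransferase gene Dnmt1 had 9.35 FPKM at P5 and 7.77 FPKM at P3, and the remodeller gene Hells had 8.77 FPKM at P5 and 4.32 FPKM at P3. Uhrf1, which recruits Dnmt1, had 1.52 FPKM at P5 and 21.2 FPKM at P3 and was the only one with an unadjusted p under 0.05 (log2 ratio -3.80, SE 1.43, p = 0.00776 in the authors' deposited table).

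Of a chosen list of 7 MAGE genes outside imprinted loci, 5 were tested and had FPKM above 0 at both ages. The 2 others were listed at 0 at both ages, as were 32.1% of all genes. Of the 5 tested, 0 were called, 3 with higher and 2 with lower FPKM at P5. Maged1, which binds the p75 neurotrophin receptor, had 134.8 FPKM at P5 and 121 FPKM at P3, Maged2 had 79.4 FPKM at P5 and 82.9 FPKM at P3, Magee1 had 19.6 FPKM at P5 and 17.4 FPKM at P3, and Magee2 had 7.91 FPKM at P5 and 8.84 FPKM at P3. Mageh1 had 44.9 FPKM at P5 and 15.6 FPKM at P3, with a log2 ratio of 1.52 (SE 1.06) in the authors' deposited table, of a size like that of Ndn. Of 7 tested partners of MAGE proteins 0 were called, 3 with higher and 4 with lower FPKM at P5. The Magel2 partner Trim27 had 4.41 FPKM at P5 and 7.26 FPKM at P3, Usp7 had 8.81 FPKM at P5 and 16.0 FPKM at P3, Nsmce1 had 19.2 FPKM at P5 and 16.8 FPKM at P3, and of the retromer genes, Vps35 had 64.6 FPKM at P5 and 52.3 FPKM at P3 and Vps26a had 29.9 FPKM at P5 and 28.4 FPKM at P3.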
